A study of Mus musculus with 8 samples.

Results

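The 6 genes described here were followed across neuron types and glia of the mouse brain: Gria1, Gria2, Gria3 and Gria4, which encode the subunits GluA1 to GluA4 of AMPA receptors, and Cnih2 and Cnih3, which encode the cornichon proteins that accompany those receptors. They were taken by symbol from the gene list of the deposited matrices, where they were 6 of 32285 genes. The nuclei came from punches of the anterior hippocampus and of the caudate putamen of C57BL/6JN mice aged 3 months (young) or 21 months (old). The 8 libraries formed 4 groups of 2 libraries (hippocampus or caudate putamen, young or old), and each library pooled nuclei of 1 male and 1 female of the same age. The labels name no genotype beyond the strain and no treatment. Whether punches of both regions were taken from 1 set of animals is not stated, and p-values below measure only the spread between these libraries. Libraries were replicates, nuclei were not.

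AMPA receptors are tetramers that carry most fast excitatory transmission, and their subunit make-up sets their conductance, calcium permeability and kinetics. GluA2 transcripts are normally edited by the enzyme ADAR2 (gene Adarb1) at the glutamine codon of the pore, the Q/R site, and receptors that hold edited GluA2 let little calcium through. Fast-spiking interneurons and oligodendrocyte precursors are known for receptors poor in GluA2 or rich in GluA4. Cornichons bind the pore-forming subunits, help them leave the endoplasmic reticulum and slow the closing of the channel.

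The Q/R site is shown because it is where the 4 subunit genes are read alike in the genome and where editing separates GluA2 from the others. The sequences are 30 bases of the coding strand from the GENCODE vM21 transcripts of GRCm38 (mm10), 5′ to 3′, each within 1 coding exon and located by a stretch of pore residues that the 4 subunits share, and capitals mark the Q/R codon.
Gria1: ggggccttcatgCAGcaaggatgtgacatt
Gria2: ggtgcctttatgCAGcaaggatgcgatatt
Gria3: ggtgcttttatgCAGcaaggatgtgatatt
Gria4: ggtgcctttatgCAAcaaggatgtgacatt
These windows lie at chr11:57243082-57243111 on the plus strand, chr3:80706896-80706925 on the minus strand, chrX:41610253-41610282 on the plus strand and chr9:4464122-4464151 on the minus strand. The windows of Gria2, Gria3 and Gria4 differ from that of Gria1 at 4, 4 and 3 bases. All 4 genes encode glutamine at this site in the genome, with the codon CAA in Gria4 and CAG in the other genes. Counts per gene cannot show editing, so the values below are transcript levels and not levels of edited subunits.

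The genes differ widely in length, which bears on any level read from nuclei, where unspliced transcripts can be counted. Gria1 spans 318.9 kb (chr11:57011387-57330244, plus strand) and Gria2 121.4 kb (chr3:80681450-80802835, minus strand). Gria3 spans 277.7 kb (chrX:41400854-41678601, plus strand) and Gria4 378.3 kb (chr9:4417896-4796234, minus strand). Cnih2 spans 5.7 kb (chr19:5092868-5098521, minus strand) and Cnih3 108 kb (chr1:181352628-181460641, plus strand). Levels are given as CPM: the unique molecular identifiers (UMIs) of a gene summed over the nuclei of a class in a library, per 1000000 UMIs of that sum. Where 2 genes are compared, CPM was divided by the gene's span and given per 100 kb.

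Of 109826 barcodes, 97912 nuclei were retained, 6382 to 17031 per library, and total UMIs per library ranged from 67205436 to 234811422. No pair of libraries shared more than 0.774% of the barcodes of the smaller one. Clusters of nuclei were named from marker genes, and a named class is meant as X-like (CA1-like, astrocyte-like) throughout. In hippocampus 24 of 36 clusters were named (37925 nuclei), and in caudate putamen 26 of 31 (54053 nuclei). The hippocampal Lhx6 and Adarb2 interneurons were groups found at a finer clustering, had levels but no test, and overlap the hippocampal inhibitory class. The 6 genes and 36 related genes were left out of the genes used for clustering. Members' levels by class are described without a test.

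Gria1, whose product is the subunit most tied to hippocampal plasticity, was highest in the Lhx6 interneurons, the inhibitory class that overlaps them (3875 CPM) and the CA1, CA3 and granule neurons of hippocampus, while the hippocampal Adarb2 interneurons (1057 CPM) and subicular or cortical neurons (641 CPM) lay below several caudate putamen classes. In CA1 pyramidal neurons it stood at 4187 and 4640.2 CPM in the young and at 4476 and 4415 CPM in the old libraries. CA3 pyramidal neurons averaged 3844 CPM ± 164 (SD, n = 4) and dentate granule neurons 3423 ± 150. Lhx6 interneurons had the highest mean of 28 class and region pairs, 6213 CPM ± 1209, with a range of 4496 to 7317 that overlapped CA1. In caudate putamen the Pvalb and Pthlh interneurons led with 3069.6 CPM ± 211, above the D1 and D2 medium spiny neurons (1415 ± 146 and 1486 ± 162). The lowest mean was that of caudate putamen oligodendrocyte precursors, 118 CPM ± 21.2, so that the highest and lowest classes stood 52.6-fold apart. Only 2 pairs of neighbours in that order did not overlap in their library ranges, CA3 over dentate granule neurons and the Pvalb and Pthlh class over the caudate putamen inhibitory class.

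Gria2, the subunit that closes the pore to calcium once edited, varied least of the subunits across classes, with 6.30-fold between the highest and the lowest. CA1 neurons averaged 2066 CPM ± 89.6 (n = 4), CA3 neurons 1940.5 ± 155 and dentate granule neurons 1914 ± 126. These 3 hippocampal classes overlapped each other and did not overlap the next class, D2 medium spiny neurons (1571 ± 198). The Gria2 levels of interneurons were lower, with 942 CPM ± 159 in Pvalb and Pthlh, 887 ± 185 in Lhx6 and 348 ± 22.1 (n = 3) in cholinergic interneurons. The cholinergic level lay close to that of oligodendrocytes, 328 CPM ± 158 in hippocampus and 389.6 ± 73.5 in caudate putamen. Astrocytes and oligodendrocyte precursors averaged between 1007 and 1194 CPM of Gria2 in both regions, at or above the level of most interneuron classes.

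Gria3 was highest in CA1 neurons (973 CPM ± 51.3), followed by Lhx6 interneurons (929 ± 62.3) and D2 and D1 medium spiny neurons (871 ± 21.5 and 804 ± 10.4). The D2 range, 841 to 891 CPM, did not overlap the D1 range, 789 to 811 CPM, the only such gap between neighbours for this gene. Adarb2 interneurons held 203 CPM ± 14.1 and Sst, Npy and Nos1 interneurons 270.4 ± 45.3. Oligodendrocyte precursors stood at 585 ± 54.7 in hippocampus and 638 ± 24.6 in caudate putamen, within the range of the neuron classes, while astrocytes stood at 67.5 ± 33.6 and 96.0 ± 19.1.

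Gria4, the subunit of fast-gating receptors, separated classes most among the 4 subunit genes, 154-fold. The Pvalb and Pthlh interneurons of the caudate putamen held 3564 and 4005 CPM in the young and 4111 and 3451 CPM in the old libraries, above every library of the Lhx6 interneurons of hippocampus (2364 to 3435 CPM). Hippocampal inhibitory interneurons (1877 ± 303), caudate putamen inhibitory interneurons (1572 ± 165), hippocampal oligodendrocyte precursors (1329.8 ± 207) and Adarb2 interneurons (1214 ± 121) followed with overlapping ranges. The principal neurons of hippocampus were low, with 178 CPM ± 11.7 in CA3, 131 ± 5.48 in dentate granule and 115 ± 12.2 in CA1 neurons, while D1 and D2 medium spiny neurons held 811 ± 135 and 626 ± 87.6. Hippocampal astrocytes (26.5 ± 5.35) and fibroblasts (24.5 ± 9.67) had the lowest means.

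**Figure D1:**
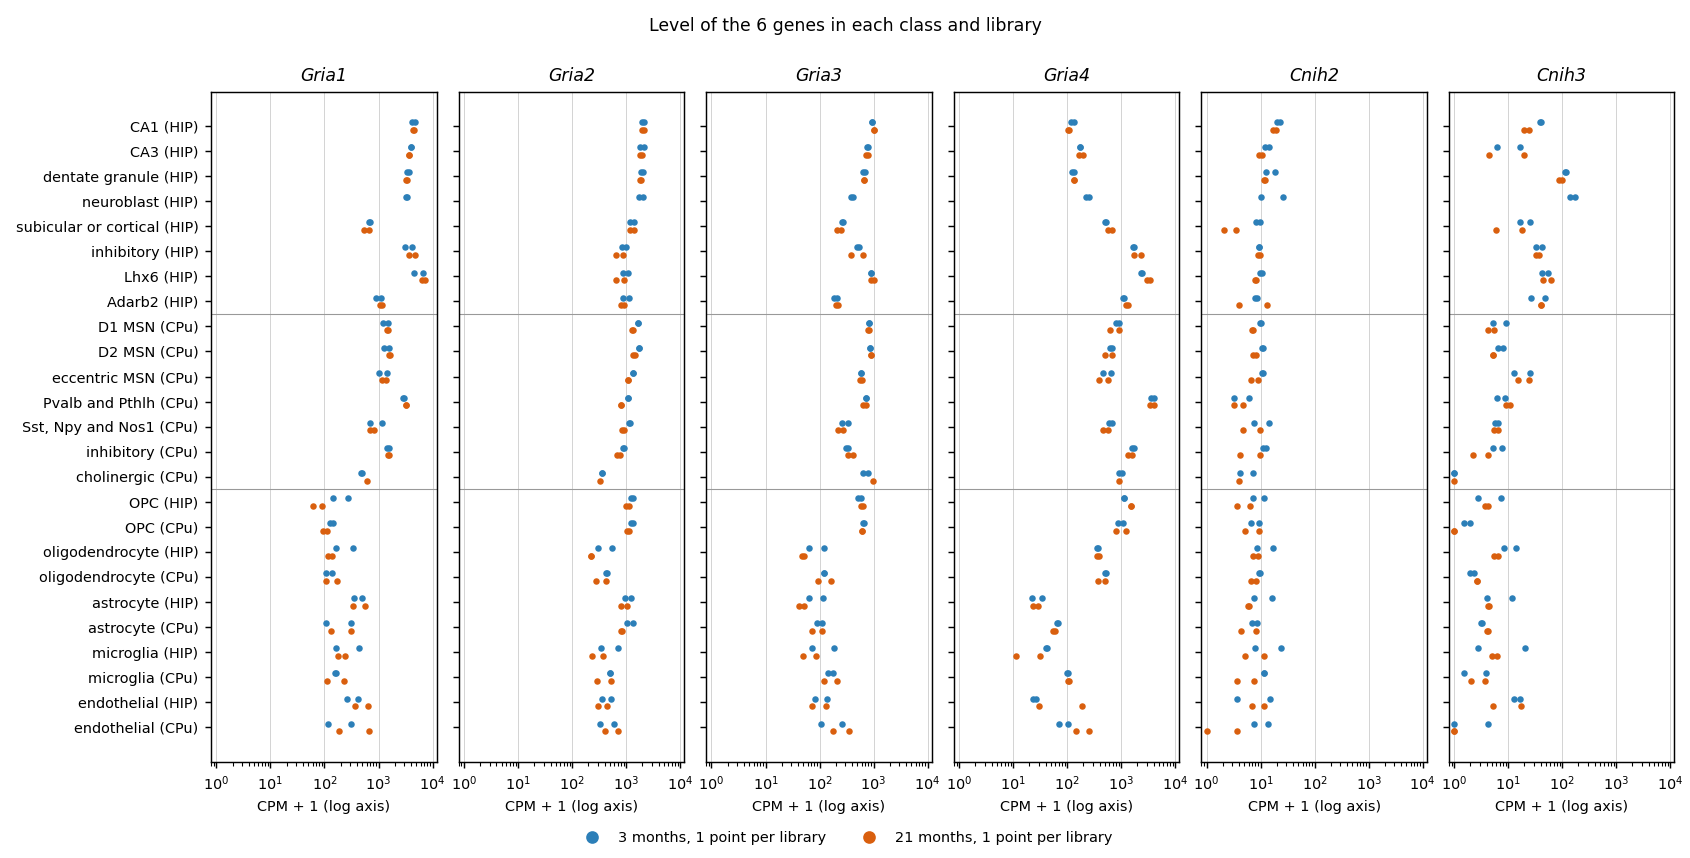
Level of each gene in neuronal classes and the main glial and endothelial classes of hippocampus (HIP) and caudate putamen (CPu), as CPM + 1 on a log axis. Points are libraries, coloured by age. Mean Gria4 runs from 26.5 CPM in hippocampal astrocytes to 3783 CPM in Pvalb and Pthlh interneurons, while class means of Cnih2 stay within a 5.60-fold range.

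The cornichons gave far fewer UMIs than the subunits. Cnih3 was highest in dentate granule neurons, with 105 CPM ± 13.8, and that range (86.9 to 116 CPM) lay above every other class with 3 or more libraries. Lhx6 interneurons held 50.04 CPM ± 9.46, Adarb2 interneurons 38.2 ± 9.20 and CA1 neurons 30.1 ± 10.4. In caudate putamen the highest class, eccentric medium spiny neurons, held 18.6 CPM ± 6.56, against 5.04 ± 2.21 in D1 and 5.22 ± 1.37 in D2 medium spiny neurons. Neuroblasts, named only in the young hippocampal libraries, held 138 and 170.2 CPM. No Cnih3 UMI was found in 153 cholinergic interneurons, which allows up to 1.96% of such nuclei with a UMI and a level of up to 0.808 CPM (3 counts over all libraries). Those limits cover counting error only, over nuclei of all 4 libraries, and bound detection rather than expression.

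Cnih2 had the flattest profile. CA1 neurons led at 18.9 CPM ± 2.43 (16.2 to 22). Per length that is 334 CPM per 100 kb, against 1389 for Gria1, 350.2 for Gria3 and 27.9 for Cnih3 in the same neurons. That order rests on the scaling. In plain CPM Gria3 stood at 973 in CA1 neurons, and Cnih3 gave 60.3% of the UMIs of the 2 cornichons there. Whether UMIs rise in proportion to gene span was not tested. No pair of neighbours among the 28 class means was free of overlap. Glial classes lay within 45.8% to 95.8% of the neuronal Cnih2 level for astrocytes, microglia, oligodendrocytes and their precursors in both regions. Cnih2 spans 5.7 kb and gave few UMIs per nucleus, and in D2 medium spiny neurons 6.62% to 13.9% of nuclei held any. The part of gene length in this was not tested.

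Length-scaled shares of the 4 subunits differed between classes. In CA1 neurons Gria2 made up 49.0% ± 1.0, Gria1 40.01% ± 0.8, Gria3 10.1% ± 0.6 and Gria4 0.9% ± 0.1 of the sum of the 4 levels per 100 kb (SD, n = 4). CA3 and dentate granule neurons had Gria2 shares of 51.1% ± 1.9 and 53.9% ± 1.4. Lhx6 interneurons stood apart, with Gria1 at 51.5% ± 3.9, Gria4 at 19.9% ± 2.3 and Gria2 at 19.6% ± 4.2. In the Pvalb and Pthlh class Gria4 (33.4% ± 2.2) and Gria1 (32.2% ± 3.1) each exceeded Gria2 (25.9% ± 3.8), and cholinergic interneurons divided more evenly, with Gria2 and Gria3 at 29.1% each. D1 and D2 medium spiny neurons held Gria2 at 56.4% ± 3.7 and 57.6% ± 3.9. The Sst, Npy and Nos1 interneurons had a Gria2 share of 62.2% ± 3.1, the highest of the interneuron classes. In astrocytes Gria2 took 82.9% ± 4.5 in hippocampus and 87.2% ± 3.9 in caudate putamen, the largest shares among the classes, and in oligodendrocyte precursors it took 61.4% ± 4.2 and 64.9% ± 3.1 with Gria1 at 2.7% ± 1.6 and 2.4% ± 0.4. In some classes the leading subunit depended on the scaling. As plain shares of UMIs, Gria1 led over Gria2 in CA1 neurons (58.4% against 27.2%) and dentate granule neurons (55.8% against 31.2%), and Gria4 over Gria2 in hippocampal oligodendrocyte precursors (41.2% against 36.4%).

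**Figure D2:**
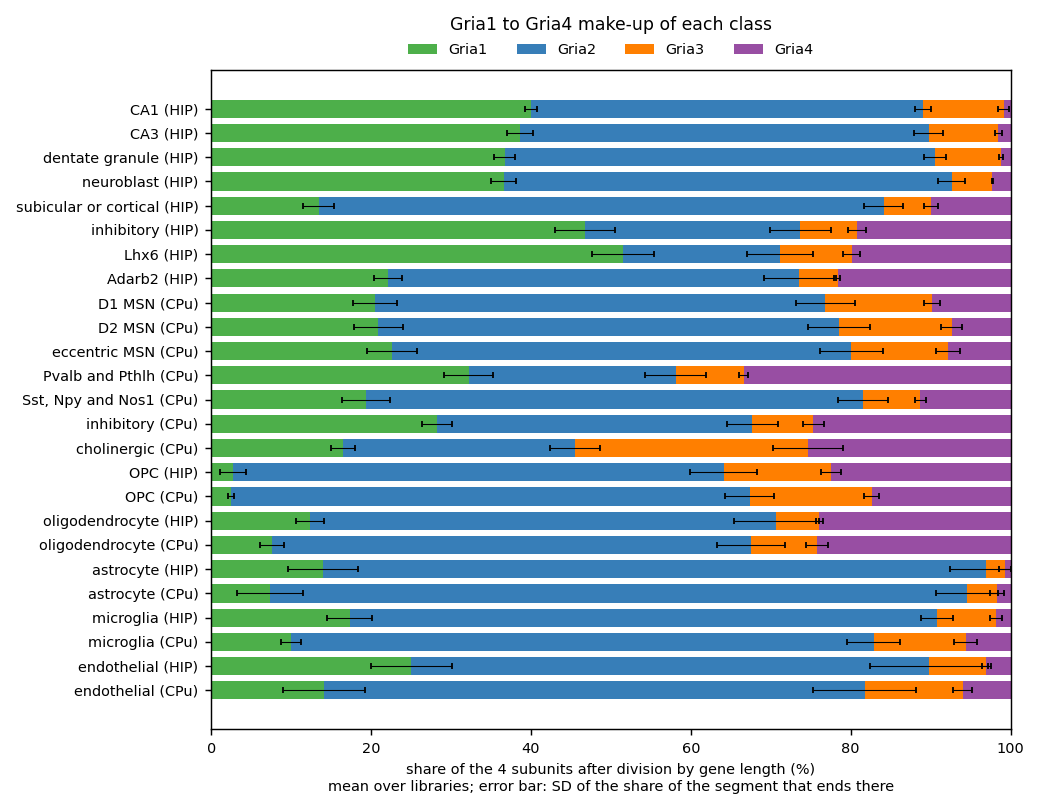
Share of each of the 4 subunit genes in their sum after division by gene length, by class, as a mean over libraries with the SD of the share of the segment that ends there. The Lhx6 and the Pvalb and Pthlh interneurons have the smallest Gria2 shares (19.6% and 25.9%), and astrocytes the largest.

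Within a class the clusters differed in some members. In hippocampal astrocytes, cluster 31 (leading genes Slc6a11, Pax3, Etnppl and Itih3) held Gria1 at 2188 CPM ± 213 (n = 4), against 159 ± 74.3 in cluster 7 and 541 ± 162 in cluster 8. In caudate putamen, cluster 26 (Slc6a11, Etnppl and Itih3 among its leading genes) held 2423 CPM ± 249 in 2 libraries and cluster 3 held 123 ± 11. Cluster 26 had 90 and 80 nuclei in the libraries of replicate number 1, 2 nuclei in the old library of replicate 2 and none in the young one. Gria2 was similar between clusters 31 and 7 but lower in cluster 8 (339 CPM ± 177), whose leading genes include Gfap. Among D1 medium spiny neurons, cluster 8 held Gria4 at 335 CPM ± 74.7, against 1051 ± 48.9 in cluster 7, and among D2 neurons cluster 12 held 322 ± 73.3, against 827 ± 38.4 in cluster 10 (n = 3). Clusters 7 and 10 came mostly from the libraries of replicate number 1 (2045 of 2194 and 815 of 860 nuclei). Clusters 8 and 12 shared 4 of their 10 leading genes (Htr2a, L3mbtl4, Myo3b and Sema5b). In dentate granule neurons cluster 5 held Cnih3 at 193 CPM ± 18.8 and cluster 11 at 45.2 ± 3.29.

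**Figure D3:**
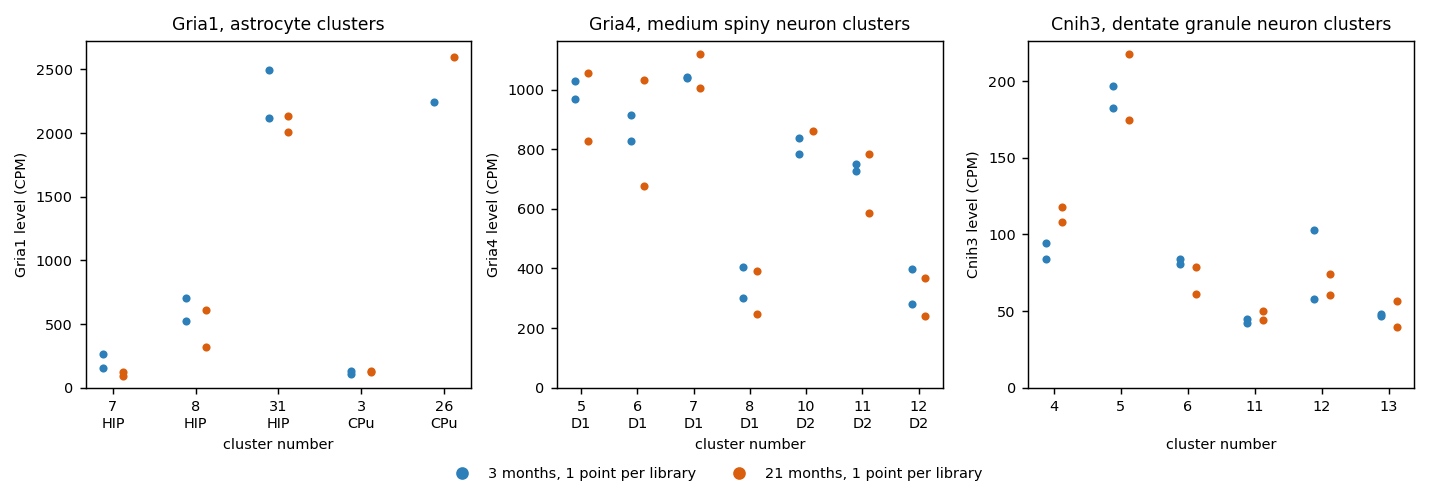
Levels by cluster: Gria1 in astrocytes of both regions, Gria4 in D1 and D2 medium spiny neurons and Cnih3 in dentate granule neurons, as CPM, with 1 point per library coloured by age. Astrocyte clusters 31 and 26 stand above the others (means of 2188 and 2423 CPM), and medium spiny neuron clusters 8 and 12 stand below the others (means of 335 and 322 CPM).

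Age changed few members by the test across all genes. The 4 subunit genes passed the filter on low counts in all 11 hippocampal and all 12 caudate putamen classes tested, Cnih3 in 8 and 6 and Cnih2 in 6 and 5. In hippocampus, 1 of 58 member and class pairs in 11 classes passed an adjusted p under 0.05 (edgeR quasi-likelihood, Benjamini-Hochberg), against 0.899% of all pairs, and the median log2 fold change of old over young was -0.18 against -0.01 for all genes. In caudate putamen 1 of 59 pairs in 12 classes passed, against 1.06% of all pairs, with a median of -0.14 against 0.00 for all genes. At an unadjusted p under 0.05 there were 16 and 12 such pairs, against 10.9% and 12.7% of all pairs. Both calls were decreases of a cornichon, and decreases made up 0.377% and 0.551% of all pairs.

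Cnih3 fell in CA1 pyramidal neurons with age. It held 40.4 and 37.4 CPM in the young and 19.1 and 23.5 CPM in the old libraries, from 615, 796, 118 and 99 UMIs, so that both old libraries lay below both young ones, as they did for 32.8% of genes in this class. The log2 change was -0.80 ± 0.13 (SE, n = 2 against 2), with an adjusted p of 0.0112 by the edgeR quasi-likelihood test, in a class where 0.875% of genes were called. Leaving out the first old hippocampal library ended the call (-0.66, adjusted p = 0.209), and DESeq2 gave -0.79 with an adjusted p of 0.0129. In dentate granule neurons Cnih3 stood at 116 and 114 CPM in the young and 101 and 86.9 CPM in the old libraries, again without overlap (32.7% of genes were lower in this way), and the change of -0.25 ± 0.07 did not pass (adjusted p = 0.0962, edgeR quasi-likelihood), in a class where 3.89% were called. There, cluster 5, the cluster highest in Cnih3, made up 28.2% and 33.4% of granule nuclei in the young libraries and 14.9% and 14.5% in the old ones. Cluster 11, the lowest, made up 21.8% and 18.1% in the young libraries and 52.4% and 49.4% in the old ones. Within cluster 5 Cnih3 stood at 197 and 182 CPM in young and 217 and 175 CPM in old libraries, which overlap. In cluster 4 Cnih3 was higher in both old libraries (118 and 108 CPM against 94.4 and 83.99 CPM), and in cluster 6 it was lower in both (78.6 and 60.9 CPM against 84.01 and 80.7 CPM). The share of all genes ordered in these ways was taken by class and not by cluster, so how common such orders are within a cluster is not known. How far the shares of clusters bear on the class value was not tested. The Cnih3 change was below 0 in all 8 hippocampal classes past the filter on low counts (median -0.48). In caudate putamen it was so in 2 of 6. Old and young levels overlapped in 5 of the 8. Oligodendrocytes, like CA1 and granule neurons, did not overlap. They held 7.28 and 13.04 CPM in the young and 4.60 and 5.45 CPM in the old libraries. The part of neuronal RNA there was not tested, and the classes share libraries.

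Cnih2 fell in D2 medium spiny neurons with age. Its levels were 10.2 and 9.84 CPM in the young and 6.14 and 7.24 CPM in the old libraries, from 391, 618, 231 and 289 UMIs, and both old libraries lay below both young ones, as for 25.1% of genes. The log2 change was -0.60 ± 0.11 with an adjusted p of 0.0329 (edgeR quasi-likelihood), in a class where 4.87% of genes were called. Leaving out any 1 of the 4 caudate putamen libraries ended the call (adjusted p from 0.0815 to 0.104). In D1 neurons Cnih2 went from 9.02 and 8.96 CPM in the young to 6.02 and 6.23 CPM in the old libraries (22.4% of genes were lower in both), with a change of -0.58 ± 0.10 that just missed the threshold (adjusted p = 0.0505, edgeR quasi-likelihood; 1.26% of genes called). Cnih2 was lower in both old libraries in 4 of 5 caudate putamen classes past the filter on low counts, against 22.8% of all gene and class pairs. In hippocampus it was so in 4 of 6, against 25.9% (CA1, CA3 and dentate granule neurons and astrocytes). Only the D2 change passed, and the classes of a region share libraries. In D2 neurons, 2396 genes of like span had a median change of -0.06, and 116 of them were called lower and 24 higher. Over all genes 488 were called lower and 357 higher. The Cnih2 call held in the 9 alternatives that left out no library, among them the removal of the trend with gene length (-0.56, adjusted p = 0.0366). Old caudate putamen libraries also had lower median UMIs per nucleus, 7556 and 6702, than the young ones, 9639 and 11266, and the part of depth in the change was not tested.

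Gria2 was lower in both old than in both young caudate putamen libraries in all 6 neuronal classes tested, but no class passed. In D1 neurons it held 1668 and 1668 CPM in the young and 1363 and 1280.4 CPM in the old libraries, and in D2 neurons 1748 and 1728 CPM against 1455 and 1353 CPM. In the Pvalb and Pthlh class the values were 1076 and 1084 CPM against 798 and 811 CPM, and in the Sst, Npy and Nos1 class 1203 and 1126 CPM against 914 and 852 CPM. The log2 changes ran from -0.29 to -0.41 with adjusted p from 0.0719 (D2) to 0.689 by the edgeR quasi-likelihood test, and DESeq2 gave D1 neurons an adjusted p of 0.00325 and D2 neurons one of 0.00688. Gria2 passed in D1 and in D2 neurons in 4 of 9 alternatives that kept every library, a fit that pairs libraries by replicate number among them, and in 0 of 4 that left 1 out. In eccentric medium spiny neurons and in the Pvalb and Pthlh class it passed only without the filter on low counts. Of all gene and class pairs in these classes, 22% were lower in both old libraries. Among 8285 genes tested in all 6 classes, 148 (1.79%) were lower in both old libraries in every class. The 6 classes come from the same 4 libraries, so they are not 6 independent observations. In hippocampus, CA1 and dentate granule neurons showed no such gap, since the old Gria2 levels (1974 and 2106 CPM in CA1) overlapped the young ones (2013 and 2172 CPM). Glia and other non-neuronal classes shared the order in part. Over all classes, Gria2 was lower in both old libraries in 10 of 12 in caudate putamen, which adds astrocytes, oligodendrocytes, their precursors and pericytes or smooth muscle cells, against 22.8% of all gene and class pairs. The oligodendrocytes were close to a tie, at 418.6 and 441.7 CPM in the young and 280.7 and 418.3 CPM in the old libraries. The count was 3 of 11 in hippocampus (oligodendrocytes, their precursors and fibroblasts), against 25.9%. In old hippocampal oligodendrocytes the neuronal transcripts used below as background ran from -1.46 (Slc17a7) to -0.53 (Rbfox3), none called. The part of neuronal RNA in the glial Gria2 order was not tested.

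**Figure D4:**
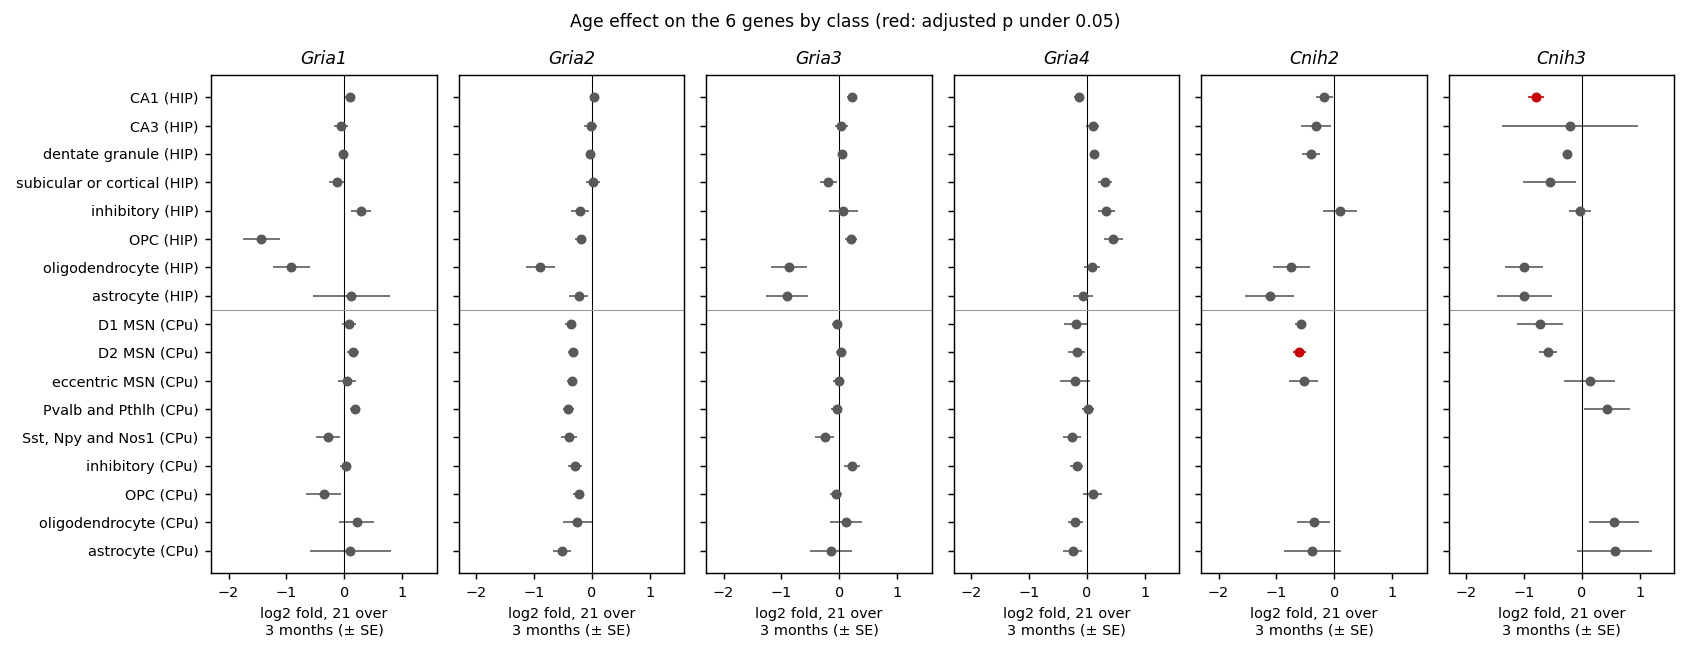
Log2 change of old over young for each gene in the neuronal classes, oligodendrocyte precursors (OPC), oligodendrocytes and astrocytes, as a point with its SE. Red marks the 2 called changes, Cnih3 in CA1 neurons (-0.80) and Cnih2 in D2 medium spiny neurons (-0.60). Gria2 lies below 0 in all 6 neuronal classes of the caudate putamen.

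No member passed for the age effect averaged over both regions in the 5 glial and vascular classes present in both (0 of 24 pairs by edgeR quasi-likelihood against 2.95% of all pairs, and 7 at an unadjusted p under 0.05 against 16.3%), nor for the difference of the age effect between regions (0 of 24 against 0.00862%, and 5 at an unadjusted p under 0.05 against 5.44%). DESeq2 called 2 pairs for the mean age effect, against 2.04% of all pairs, and 0 for the difference, against 0.0155%. In hippocampal oligodendrocyte precursors Gria1 stood at 141 and 269 CPM in young and 88.8 and 60.6 CPM in old libraries, a change of -1.44 ± 0.32 that did not pass (adjusted p = 0.0942, edgeR quasi-likelihood). It passed without the first young hippocampal library (-1.79, adjusted p = 1.44e-11), without the second (-0.87, adjusted p = 0.0236) and in 4 of 9 alternatives that kept every library. In that class 1.2% of genes were called and 25.5% were lower in both old libraries. Of the neuronal transcripts used below as background, Syt1 stood at -1.33, Slc17a7 at -1.14 and Rbfox3 at -1.06 there, none of them called, while Snap25 stood at -0.36, Grin1 at -0.05 and Syn1 at 0.33. The part of neuronal RNA was not tested. In the same cells Gria4 was higher in both old libraries (1506 and 1512 CPM) than in both young ones (1148 and 1153 CPM), a change of 0.46 ± 0.17 that did not pass either (adjusted p = 0.305), and 14.7% of genes were higher in both.

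Neuronal transcripts can reach glial barcodes, as free RNA or in doublets that were not called, so each glial level was set against transcripts that neurons hold: Rbfox3, Snap25, Syt1, Syn1, Grin1 and, by region, Slc17a7 or Pde10a. The neuronal level is that of all named neurons of the same library and leaves out the unnamed clusters. In hippocampus those clusters held 10.3% of nuclei. Gria4 made up 18.1% of the subunit UMIs of those clusters, against 3.5% in named neurons. How far they would change the Gria4 percentages was not tested. Their median in glia was 9.18% of the neuronal level in hippocampal astrocytes, 11.8% in oligodendrocytes, 12.8% in oligodendrocyte precursors and 10.97% in microglia, and 10.7%, 12.8%, 12.5% and 15.3% in the same classes of caudate putamen. The second young hippocampal library had the highest share in each of the 4 hippocampal classes. Gria1 in oligodendrocyte precursors stood at 3.86% and 8.24% of the neuronal level, Gria4 in astrocytes at 12% and 7.95%, and Gria4 in microglia at 13.7% and 13.5%, which are at or below the background shares or close to them. Among the levels above background were Gria2 in astrocytes (53.4% and 67.3%) and in oligodendrocyte precursors (62.5% and 80.6%), Gria3 in precursors (83.5% and 78.7%) and Gria4 in precursors (599% and 127%) and oligodendrocytes (169% and 61.6%), hippocampus first.

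**Figure D5:**
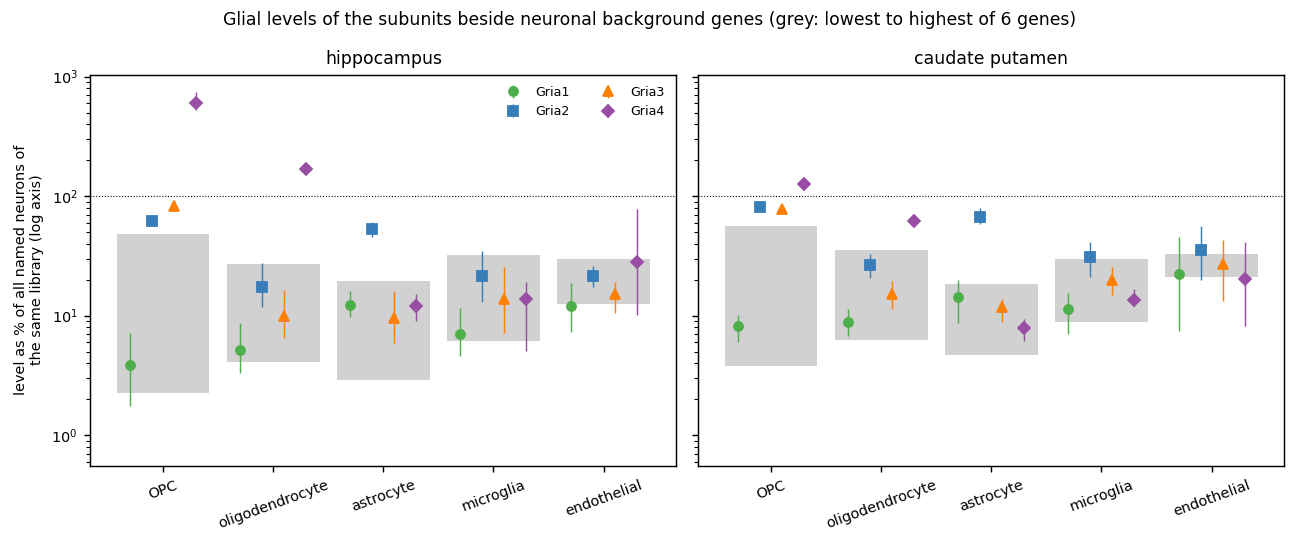
Level of each subunit gene in glial and endothelial classes as a percentage of its level in all named neurons of the same library, on a log axis. Points are means over 4 libraries, bars the range over those libraries, and the grey band the lowest to highest mean of the 6 neuronal transcripts used as background. Gria4 in oligodendrocyte precursors (599% and 127%) and Gria2 in astrocytes (53.4% and 67.3%) lie above the band.

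Between the regions, 5 of 24 member and class pairs in glial and vascular classes passed (edgeR quasi-likelihood; 4 higher and 1 lower in caudate putamen), against 11.2% of all pairs, with a median log2 difference of 0.03 against -0.01. Gria4 was higher in caudate putamen astrocytes. It stood at 21.9, 33.3, 28.1 and 22.5 CPM in the hippocampal libraries and at 67.0, 65.6, 52.8 and 58.4 CPM in the caudate putamen ones, without overlap, as for 11.4% of genes. The log2 difference was 1.17 ± 0.12 (adjusted p = 2.09e-05, edgeR quasi-likelihood; 21.5% of genes called). In microglia Gria4 stood at 42.2, 39.9, 10.3 and 30.3 CPM against 104, 100.02, 106 and 104 CPM, a difference of 1.83 ± 0.21 (adjusted p = 5.28e-06), where 6.45% of genes were called and 5.64% were higher without overlap. With doublets retained that difference was 0.11 (adjusted p = 0.784), and the astrocyte one was 3.12.

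Both sat beside a neuronal difference of the same sign. Named neurons of the caudate putamen held 779.6 CPM of Gria4 on average and those of hippocampus 222.8 CPM, a log2 ratio of 1.81. These means leave out the unnamed clusters, some of which were high in Gria4 in hippocampus. The 5 background genes used in both regions were higher in caudate putamen glia in value too, with medians of 0.51 in astrocytes and 0.39 in microglia and none called. Of the background genes used in 1 region each, Slc17a7, used for hippocampal neurons, stood at -5.63 in astrocytes and -4.60 in microglia, and Pde10a, used for striatal neurons, at 0.37 and 3.13. In neurons they differed by -8.67 and 2.82, and hippocampal neurons held 641 CPM of Pde10a. The part of neuronal RNA in the glial Gria4 difference was not tested.

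Cnih3 was lower in caudate putamen oligodendrocytes, at 1.39, 0.941, 1.63 and 1.65 CPM, than in hippocampal ones, at 7.28, 13.04, 4.60 and 5.45 CPM. The log2 difference was -2.41 ± 0.26 (adjusted p = 0.000118, edgeR quasi-likelihood), where 12.9% of genes were called and 5.34% were lower without overlap. Named neurons differed in the same direction, with 5.71 CPM of Cnih3 in caudate putamen and 83.4 CPM in hippocampus (log2 -3.87). Cnih3 in oligodendrocytes was 26.5% and 8.93% of the neuronal level in those regions. Whether the oligodendrocytes or neuronal RNA gave these UMIs was not tested.

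In oligodendrocytes Gria4 was also higher in caudate putamen, at 507, 536, 505 and 369.5 CPM against 359.5, 379, 364 and 397 CPM, with 1 caudate putamen library, the second old one, inside the hippocampal range. The difference of 0.32 ± 0.09 passed (adjusted p = 0.0448, edgeR quasi-likelihood), but 7 of 8 leave-one-out fits ended the call, with adjusted p from 0.00146 (without the second old caudate putamen library) to 0.162 (without the second young one). Removing the trend of changes with gene length ended it too (0.22, adjusted p = 0.332). Gria3 in oligodendrocytes stood at 122, 119, 92.1 and 159 CPM against 63.6, 118, 51.0 and 45.7 CPM, a difference of 0.86 ± 0.21 (adjusted p = 0.0289). Leaving out the first young hippocampal library (adjusted p = 0.114), the first young caudate putamen library (0.0568) or the second old caudate putamen library (0.0584) ended that call. A fit that pairs libraries by replicate number ended both oligodendrocyte calls too. In the same contrast and class, the 5 background genes used in both regions ran from 0.14 to 0.98 with Grin1 called (0.98, adjusted p = 0.0368, edgeR quasi-likelihood), Pde10a stood at 3.33 and Slc17a7 at -5.15, and neuronal Gria3 differed by 0.21. In oligodendrocyte precursors Gria4 was higher in hippocampus in mean (1329.8 against 994 CPM), and the difference of -0.46 ± 0.12 did not pass (adjusted p = 0.0551; 5.24% of genes called).

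The 36 related genes were read from the main fits only, with no alternative setting and no library left out. How far their calls depend on the settings or on 1 library is therefore not known. The shares of all pairs beside them pool the classes. By class, the age tests called 4.87% of genes in D2 neurons, 3.89% in dentate granule neurons and 0.875% in CA1 neurons. Of 13 auxiliary subunits, the hippocampal age test called 5 of 125 pairs, 2 up and 3 down, against 0.899% of all pairs, with a median log2 change of -0.03 against -0.01 for all genes. Gsg1l, a claudin-like auxiliary protein, was higher in old CA1 neurons (1.02, adjusted p = 0.00119, edgeR quasi-likelihood) and dentate granule neurons (0.53, adjusted p = 0.000617) and lower in old astrocytes (-1.53, adjusted p = 0.0153), and Shisa9, which modulates desensitisation, was lower in old CA3 neurons (-0.92, adjusted p = 0.0264). The remaining call, Cacng5 in dentate granule neurons (-0.68, adjusted p = 0.0156), is given after its value was seen. The same subunits had 2 of 129 pairs called in caudate putamen, against 1.06% of all pairs, both up: Cacng5, a transmembrane AMPA receptor regulatory protein, in oligodendrocytes (1.40, adjusted p = 0.0228) and Shisa9 in D2 neurons (0.38, adjusted p = 0.0437).

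Of 5 biogenesis and editing genes, 0 of 54 pairs passed in hippocampus (edgeR quasi-likelihood; 0.899% of all pairs), with 15 at an unadjusted p under 0.05 against 10.9% of all pairs, and 1 of 55 passed in caudate putamen (1.06% of all pairs): Adarb1, the editing enzyme, rose in D2 neurons (0.31 ± 0.06, adjusted p = 0.0363). Of 18 scaffolds and synaptic partners, 5 of 169 pairs passed in hippocampus, 1 up and 4 down, against 0.899% of all pairs, with a median of -0.13 against -0.01. Grip1, which anchors GluA2 and GluA3, fell in old hippocampal astrocytes (-1.95, adjusted p = 0.0153), CA1 neurons (-0.76, adjusted p = 0.000336) and dentate granule neurons (-0.39, adjusted p = 0.00346), and Prrt1 fell in CA1 neurons (-0.67, adjusted p = 0.0453). The remaining call, Nptxr, a neuronal pentraxin receptor, rose in dentate granule neurons (0.28, adjusted p = 0.0427) and is likewise given after its value was seen. In caudate putamen 2 of 177 pairs passed, against 1.06% of all pairs, both down: Grip1 in astrocytes (-1.31, adjusted p = 0.0496) and Prrt1 in D2 neurons (-0.87, adjusted p = 0.0105). For the age effect averaged over both regions in glia, 2 of 56 auxiliary, 1 of 24 biogenesis and 2 of 73 scaffold pairs passed, against 2.95% of all pairs. These were Cacng5 (1.37) and Cpt1c (-0.40) in oligodendrocytes, Gsg1l (-1.02) and Grip1 (-1.63) in astrocytes and Prrt1 (-0.90) in oligodendrocyte precursors. Among the neuronal background transcripts, Slc17a7 in old hippocampal astrocytes stood at -1.50, Snap25 at -0.91, Syt1 at -0.83, Rbfox3 at -0.77, Grin1 at -0.75 and Syn1 at -0.67, none of them called. For the mean age effect Syn1 fell in oligodendrocytes (-0.42, adjusted p = 0.0464) and Snap25 in oligodendrocyte precursors (-0.36, adjusted p = 0.0411), and Snap25 stood at -0.70 in astrocytes without passing. Their part in the glial decreases was not tested.

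Between regions, auxiliary subunits had 17 pairs higher and 4 lower of 56 in caudate putamen (edgeR quasi-likelihood), against 11.2% of all pairs called, with a median of 0.64 against -0.01 for all genes. Cacng2, Cacng3, Cacng4 and Gsg1l, named after their values were seen, were each called higher in astrocytes, microglia and oligodendrocytes. Against that direction, Shisa6 was lower in endothelial cells, microglia and oligodendrocytes (-4.68, -4.20 and -3.78). Frrs1l, needed for subunit assembly, was the only biogenesis pair called of 24, lower in caudate putamen astrocytes (-1.45, adjusted p = 1.95e-05). Scaffolds had 16 pairs higher and 12 lower of 73, with a median of 0.11, and the largest were Olfm1 in endothelial cells and microglia (-5.68 and -4.20) and Nptx1 in astrocytes (-3.74). Neuronal levels of these genes were not compared between regions, and the part of neuronal RNA in these glial differences was not tested.

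Genes of most like pattern were ranked by Pearson's r of log2(CPM + 1) over 23 class means, among 12652 genes, as a description only, since classes share libraries. For Gria1 these were Epha6 (0.950), Camk2a (0.937) and Abcc8 (0.920), for Gria2 Actr3b (0.927), Grik5 (0.903) and Cacng8 (0.896), and for Gria3 Shisa7 (0.948), Sntg1 (0.940) and Grm5 (0.939). For Gria4 they were Dpp10 (0.873), Vstm5 (0.869) and Mcf2 (0.868), for Cnih3 Cpne6 (0.870), Epha7 (0.849) and Slc7a14 (0.846), and for Cnih2 Creg2 (0.770), Sipa1l3 (0.769) and Cdc40 (0.728). Cacng8 and Shisa7 are auxiliary subunits of AMPA receptors. Between members, r ran from -0.406 for Cnih2 with Gria4 to 0.785 for Gria2 with Gria3. It was 0.266 for Gria1 with Gria4 and -0.039 for Cnih3 with Gria4.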

How the data were processed

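Single-nucleus RNA was sequenced on the 10x Genomics platform, and the authors deposited raw UMI counts, which are not normalized. The second young caudate putamen library was made with Cell Ranger 7.0.0 and the other 7 with version 6.1.2, per the file headers, while the submitters' processing notes name Cell Ranger 4.0.0 and mm10. Whether intronic reads were counted is not given in the sources used here and can differ between versions, so the values of the library made with 7.0.0 could be unlike the others.

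Barcodes with under 500 genes (1307) or over 5% mitochondrial UMIs (3) were removed, and Scrublet in scanpy 1.11.5 called 10604 doublets, which were left out. In the second young hippocampal library the expected share set the Scrublet threshold. Each region was clustered alone (3000 variable genes, 40 principal components, 20 neighbours, Leiden resolution 1.0, igraph 0.11.9). Clusters needed 3 markers of a class, and the limits of the naming rule were set after cluster tables had been seen and before any member was tested. Members and lists were chosen with earlier results of these data known.

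Counts were summed per class and library, with at least 20 nuclei in each library used, and the test was the quasi-likelihood one of edgeR 4.0.16 with TMM scaling, filterByExpr and robust fitting. Neurons were fitted on the 4 libraries of their region and shared glial and vascular classes on all 8. Benjamini-Hochberg adjustment ran over all genes tested in the same class and contrast, and SEs come from the F statistic. DESeq2 1.42.0 was an alternative. The genes named are the 6 members, at most the 3 listed genes of largest change per list and contrast among those called, and the 3 genes of most like pattern per member. Genes marked as given or named after their values were seen come beside these. Scripts were tested on simulated counts.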

Additional observations from a re-analysis of the deposited data

How the results depend on the processing

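Called member pairs are given with the share of all gene and class pairs called under the same setting. For age in hippocampus (1, 0.899%) they were 4 with DESeq2 (1.02%), 12 without the filter on low counts (2.17%), 5 with the replicate block (1.77%), 2 with equal nuclei (1.04%), 3 with the length trend removed (0.99%), and 0 to 9 when 1 library was left out (0.266% to 3.68%). For age in caudate putamen (1, 1.06%) they were 4 with DESeq2 (1.39%), 8 without the filter (1.88%), 7 with the replicate block (4.23%) and 2 with doublets retained (1.12%). They were 3 at resolution 0.5 (1.16%), 2 with equal nuclei (0.995%) and 3 without clusters found almost only in 1 replicate number (2.06%, an alternative chosen after seeing the data). The main call ended with any 1 caudate putamen library left out. For the mean age effect in glia (0, 2.95%) they were 2 with DESeq2 (2.04%), 9 without the filter (3.8%), 6 with the replicate block (4.1%), 3 with the length trend removed (2.47%), and 0 to 5 with a library left out (0.891% to 6.31%). For the regional difference of the age effect (0, 0.00862%) they were 4 without the filter (0.557%) and 0 to 1 with a library left out (0% to 0.14%). For caudate putamen against hippocampus (5, 11.2%) they were 12 without the filter (8.39%), 12 with doublets retained (19.9%), and 4 to 6 with a library left out (7.32% to 12.1%). The causes were not tested.

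TMM scaling moves classes against each other. In the classes given here TMM-scaled levels exceeded plain CPM: Gria1 5992, Gria2 2793, Gria3 1317 and Cnih2 25.5 in CA1 neurons, Cnih3 134 in dentate granule neurons, and Gria4 407 in hippocampal oligodendrocytes and 4117 in Pvalb and Pthlh interneurons. In the latter Gria4 was 2818 with doublets retained and 3043 at resolution 0.5. Among the 11 hippocampal and 12 caudate putamen classes tested, which leave out the Lhx6 and Adarb2 interneurons, the highest class was the same under both scalings for every member except Cnih2 in caudate putamen. Gria1 in astrocytes, -1.07 between regions and not called, was 0.32 with doublets retained and -1.86 (called, adjusted p = 0.00103) without the clusters of 1 replicate number.

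The labels do not tie replicate numbers to a shared animal or batch, and with 2 pairs per region the data cannot settle a pairing. Deviations of same-numbered libraries correlated from -0.18 to 0.27 over 11 hippocampal classes and from 0.06 to 0.50 over 12 caudate putamen classes, where all were above 0 and 7 clusters came almost only from replicate 1 libraries. Under the replicate block Gria2 with age passed in D1 (-0.36, adjusted p = 0.00104) and D2 neurons (-0.33, adjusted p = 0.0184). Under the replicate block the oligodendrocyte region calls of Gria4 (0.44, adjusted p = 0.0891) and Gria3 (0.84, adjusted p = 0.146) were lost. Subicular or cortical neurons had no value with doublets retained, nor caudate putamen inhibitory interneurons with doublets retained or at resolution 0.5. With 2 libraries per group, and 5 to 37 UMIs of Gria4 per hippocampal microglial sum, depth limits the glial values.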

Other observations

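The 12 hippocampal clusters that received no name enter no comparison, and 5 of them, chosen after their values were seen, are given here as mean CPM with the SD over libraries. Cluster 0 (leading genes Otx2os1, L3mbtl4 and Chrm2, 860 nuclei) held Gria4 at 1430.8 ± 103 and Gria1 at 992 ± 172 (n = 4). Cluster 23 (Adamts19, Synpo2 and Nell1, 617 nuclei) held Gria1 at 488 ± 56.0, Gria2 at 465 ± 69.8 and Gria4 at 1330.0 ± 92.8 (n = 4). In cluster 27 (Vwc2l, Dpp10 and Atp10b, 189 nuclei) Gria1 stood at 199 ± 77.9 and Gria4 at 1114 ± 76.9 (n = 2). Cluster 21 (Stac, Rxfp1 and Shoc1, 487 nuclei), whose best marker score was for CA1 neurons, held Gria1 at 3785 ± 184 and Cnih3 at 84.7 ± 17.2 (n = 4). Cluster 28 (Crispld1, Il1rapl2 and Csf2rb2, 134 nuclei) held Gria1 at 3632 ± 312, Gria4 at 524 ± 56.2 and Cnih3 at 6.24 ± 1.36 (n = 2).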
